A study of Mus musculus with 16 samples.

Results

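Arg1, Nos2, Hmox1, Il1b, Vegfa, Thbs1, Inhba, Saa3, and Acod1 are 9 genes of inflammation and tissue repair, out of 32285 genes measured, and they were examined in the myeloid cells of rejecting mouse kidney allografts. CD45+ leukocytes were sorted from WT B6 kidneys 1 week after transplantation into DBA/2J recipients, a combination in which the graft is rejected, and were profiled by droplet scRNA-seq. The labels give C57BL/6J as the strain of every sample, including these grafts. Each captured mRNA is counted once by its unique molecular identifier (UMI). A cell was taken as myeloid when it held a UMI of Lyz2 (lysozyme) or Csf1r (the receptor for macrophage colony-stimulating factor) and no UMI of Cd3d, Cd3e, Cd3g, or Cd79a. Of 11948 CD45+ cells, 7253 (60.7%) met this gate, with 2858 in library 2 and 4395 in library 3, the 2 library tags in the cell barcodes. The reference was CD45+ cells of spleens from naive WT C57BL/6J mice, of which 1056 of 47060 cells (2.24%) in 5 libraries met the gate. The study's methods describe single mice as samples, but the number of mice they give at this time is not the number of rejecting tags, so whether each tag is 1 mouse is not settled here and the spread between libraries may be technical. Tissue, transplantation, and recipient strain differ together between these groups and cannot be told apart. Cell isolation differs with them, since the paper's methods digest kidney with collagenase but grind spleen and lyse its red cells. A batch of processing, if there was one, could not be told apart either.

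Macrophages and monocytes change their gene programs with the signals around them. Interferons and microbial products are known to raise Nos2, whose enzyme makes nitric oxide from arginine, and Acod1, whose enzyme makes itaconate. Interleukin-4, hypoxia, and uptake of dying cells are known to raise Arg1, whose enzyme splits arginine into ornithine and urea and so competes with nitric oxide synthesis. The other members act on the surrounding tissue: Il1b encodes a secreted inflammatory cytokine, Saa3 an acute phase protein, Hmox1 the enzyme that degrades heme, Vegfa the angiogenic growth factor, Thbs1 the matrix protein thrombospondin, and Inhba the subunit of activin A.

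The members were proposed from their levels and co-occurrence in these rejecting cells and from their comparison with naive spleen. Levels, shares, pairs, and rejecting-to-naive ratios are therefore descriptions and carry no test.

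The genes lie on separate chromosomes, apart from Thbs1 and Il1b. In GRCm38 (mm10) with GENCODE annotation they span chr10:24915221-24927484 (Arg1), chr11:78920787-78960254 (Nos2), chr8:75093621-75100589 (Hmox1), chr2:129364570-129371139 (Il1b), chr17:46016993-46032369 (Vegfa), chr2:118111876-118127133 (Thbs1), chr13:16011851-16031621 (Inhba), chr7:46711998-46715700 (Saa3), and chr14:103046977-103056573 (Acod1). The 3′ end of the transcripts was counted, so levels of different genes were not adjusted for length and are not ranked against each other.

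RefSeq promoter entries (GRCm38.p6) were matched for 5 of the 9 members, and 4 of them are printed because Il1b and Inhba were the pair with the highest odds of occurring in the same cell at 1000 UMIs per cell, and Saa3 and Acod1 are the acute phase and itaconate members that separated rejecting from naive libraries. Each holds the 250 bases before the start of its RefSeq entry, 5′ to 3′ on the strand of the gene, at chr2:129371140-129371389 (minus strand) for Il1b, chr13:16011601-16011850 (plus strand) for Inhba, chr7:46715677-46715926 (minus strand) for Saa3, and chr14:103046762-103047011 (plus strand) for Acod1. For Saa3 and Acod1 this start lies inside the GENCODE span given above, so the end of the window overlaps that span. Positions of matches count from the start of the RefSeq entry. Capitals mark every match to the motifs searched.
Il1b: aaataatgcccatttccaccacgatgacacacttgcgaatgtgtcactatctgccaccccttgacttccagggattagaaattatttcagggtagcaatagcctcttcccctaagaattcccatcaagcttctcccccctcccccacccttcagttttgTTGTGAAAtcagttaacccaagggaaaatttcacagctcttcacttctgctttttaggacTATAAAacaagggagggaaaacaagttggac
Inhba: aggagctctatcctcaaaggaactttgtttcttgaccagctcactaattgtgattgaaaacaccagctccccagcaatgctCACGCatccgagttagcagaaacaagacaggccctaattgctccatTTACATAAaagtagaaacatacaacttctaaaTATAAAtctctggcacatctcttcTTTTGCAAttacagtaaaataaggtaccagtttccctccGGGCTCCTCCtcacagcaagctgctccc
Saa3: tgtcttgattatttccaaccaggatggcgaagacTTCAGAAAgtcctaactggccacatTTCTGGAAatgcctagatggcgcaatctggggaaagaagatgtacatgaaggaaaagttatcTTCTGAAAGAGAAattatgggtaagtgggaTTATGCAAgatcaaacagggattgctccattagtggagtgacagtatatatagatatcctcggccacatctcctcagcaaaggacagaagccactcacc
Acod1: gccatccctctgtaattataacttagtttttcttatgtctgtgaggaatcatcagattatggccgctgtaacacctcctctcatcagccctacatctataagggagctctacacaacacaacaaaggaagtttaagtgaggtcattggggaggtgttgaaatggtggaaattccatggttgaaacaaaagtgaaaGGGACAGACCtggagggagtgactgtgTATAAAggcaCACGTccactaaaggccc

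The C/EBP-like motif (TTNNGNAA, either strand) matched once in the Il1b promoter, 91 to 84 bases before the start, 2 times in Inhba, and 4 times in Saa3, and 36.9% of 32841 mouse promoters of the same length hold it. The NF-kappaB-like motif (GGG and CC with any 5 bases between them, either strand) matched Inhba 28 to 19 bases, Acod1 55 to 46 bases, and Vegfa, whose window is not printed, 118 to 109 bases before the start, against 45.8% of all promoters. TATAAA on the strand of the gene, present in 7.59% of promoters, began 31 bases before the start in Il1b, 28 bases in Acod1, and 91 bases in Inhba. In Acod1 this match lies inside the GENCODE span of the gene. The core of the interferon-stimulated response element (TTCNNTTTC, either strand; 7.13% of promoters) matched Saa3 125 to 117 bases before the start, overlapping a C/EBP-like match, and Vegfa 141 to 133 bases before it. The hypoxia response cores ACGTG (16.6% of promoters) and GCGTG (28.2%) matched Acod1 and Inhba, respectively, 1 time each on the opposite strand. The AP-1 motif TGANTCA (6.75%) and the antioxidant motif TGACNNNGC (10.2%) matched none of the 5 windows. These matches describe letters in the windows and were not tested as binding sites.

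Before the levels, the gated cells were checked against markers. Of the gated rejecting cells, 4694 (64.7%) held UMIs of both Lyz2 and Csf1r, and 360 (4.96%) rested on a single Lyz2 UMI. Macrophage markers (C1qa, C1qb, C1qc, Apoe, Ms4a7) summed to 7811 CPM, the UMIs of a gene per 1000000 UMIs of the library, in library 2 and 1830 CPM in library 3, and monocyte markers (Ly6c2, Ccr2, Plac8, F13a1, Vcan) to 1923 and 3268 CPM. Kidney parenchyma markers summed to at most 2.03 CPM, Trac and Cd8b1, the T cell markers that the gate did not use, to at most 6.34 CPM, and natural killer cell markers to at most 121 CPM. Neutrophil markers summed to 294 and 450 CPM in the rejecting libraries against 4278 to 91851 CPM (median 7294) in naive spleen, and erythroid markers to 7.18 and 2.59 CPM against 0 to 33595 CPM (median 2366). Over all 7253 rejecting cells, 29.9% held a UMI of the neutrophil list, with 4152 UMIs of S100a8, 1757 of Csf3r, 1602 of S100a9, 28 of Retnlg, and 25 of Cxcr2. Median depth was 2231 and 2381 UMIs per rejecting cell and 3281 to 5365 UMIs per naive cell. The 2 rejecting libraries shared 13 cell barcodes, or 0.242% of the smaller one.

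Arg1 and Nos2, the 2 enzymes that use arginine, were both present in rejecting myeloid cells and close to absent from naive ones. Arg1 measured 55.0 CPM in library 2 and 49.0 CPM in library 3 (52.0 ± 4.25, SD, n = 2), and Nos2 measured 51.9 and 80.9 CPM (66.4 ± 20.5, n = 2). In naive spleen, Arg1 was at 0 in 4 libraries and at 0.654 CPM, from 1 UMI, in the remaining library, and Nos2 was at 0 in all 5. Pooled over cells, Arg1 was 252-fold higher in rejecting than in naive cells, with a counting interval of 45.2 to 9975, since the naive level rests on that 1 UMI. Counting intervals of ratios are exact binomial 95% intervals that take each UMI as an independent draw. They leave out the clumping of UMIs in cells and the differences between libraries, and so are too narrow. Nos2 was at least 114-fold higher, taking 3 counts over all naive cells as the floor. Arg1 UMIs were concentrated in few cells. The 10 cells with the most Arg1 held 54.9% of its UMIs in library 2 and 26.9% in library 3, and 1 cell of library 2 held 38 UMIs. For Nos2 these 10 cells held 25.3% and 10.9%.

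Acod1 and Saa3 were likewise higher in both rejecting libraries than in every naive library. Acod1 measured 181 and 314 CPM (247 ± 94.3, n = 2) in libraries 2 and 3, and 27.8, 0, 26.2, 3.47, and 0 CPM in the 5 naive libraries. Saa3 measured 77.6 and 238 CPM (158 ± 114, n = 2), against 15.4, 0, 4.58, 6.94, and 0 CPM. The pooled ratio was 13.5 for Acod1 and 21.2 for Saa3. Both genes were higher in library 3 than in library 2, by 1.74-fold and 3.07-fold.

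Il1b was the exception among the inflammatory members, because its level in rejecting cells fell inside the naive range. It measured 685 and 380 CPM (532 ± 216, n = 2) in rejecting kidney and 705, 280, 782, 208, and 310 CPM (457 ± 266, n = 5) in naive spleen. The pooled ratio was 0.829 and the ratio of library means 1.16. The 2 naive libraries with the highest Il1b were those in which neutrophil-marker cells made up 37.0% and 33.3% of gated cells, while the other 3 held 7.83% to 13.8%.

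Among the genes of repair and stress, Vegfa alone separated the groups. It measured 97.7 CPM in library 2 and 27.0 CPM in library 3 (62.3 ± 49.9, n = 2), a 3.61-fold difference between rejecting libraries, and 6.17, 2.12, 3.27, 1.73, and 0 CPM in naive libraries, for a pooled ratio of 14.0. Hmox1 measured 171 and 208 CPM (190 ± 25.8, n = 2) against 236, 329, 250, 258, and 183 CPM (251 ± 52.6, n = 5), so the ranges overlapped, with a pooled ratio of 0.783. Thbs1 measured 34.0 and 16.5 CPM (25.3 ± 12.4, n = 2) against 56.6, 23.4, 68.7, 5.20, and 7.50 CPM (32.3 ± 28.9, n = 5). Both rejecting values of Thbs1 lay within the naive range. Inhba was nearly equal in the rejecting libraries, at 34.5 and 34.3 CPM (34.4 ± 0.170, n = 2), and ran from 0 to 35.5 CPM in naive spleen, where 1 library reached the rejecting level.

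In total, 5 of the 9 members (Arg1, Nos2, Vegfa, Saa3, and Acod1) had both rejecting libraries above all naive libraries, and 4 overlapped. Of 10019 genes tested across the gated cells, 31.3% had both rejecting libraries above all naive ones. Since the members were chosen with this contrast in view, nothing is read from that count.

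**Figure D1:**
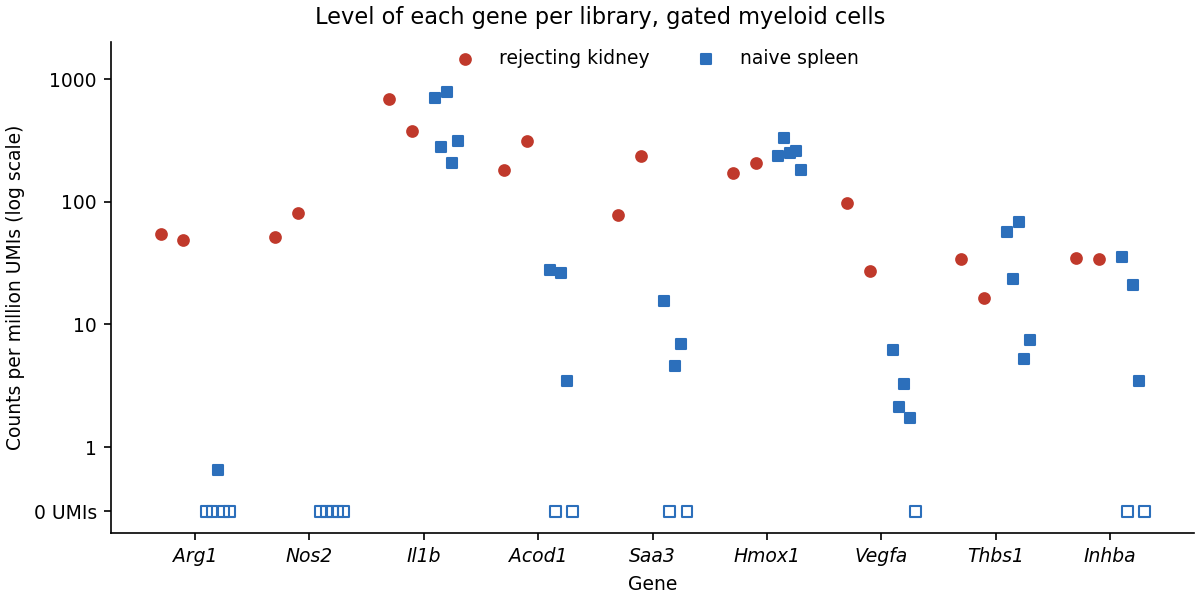
Level of each member in gated myeloid cells, in CPM on a log axis, with 1 point per library. Rejecting libraries lie above all naive libraries for Arg1, Nos2, Vegfa, Saa3, and Acod1 and overlap them for Hmox1, Il1b, Thbs1, and Inhba; Nos2 was at 0 in all 5 naive libraries.

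The rejecting-to-naive ratios of Il1b and Inhba changed when cells with neutrophil markers were set aside. Cells were grouped by which of 6 myeloid marker lists had the most genes detected, with at least 2 genes and no tie. Neutrophil-marker cells were 296 of the 1056 naive cells (28.0%) and 19 of the 7253 rejecting cells (0.262%). They held 82.2% of all Il1b UMIs in the naive gate, 94.8% of Acod1, 88.3% of Inhba, and 73.7% of Vegfa. Their pooled Il1b level was 2447 CPM. A wider alternative left out every gated cell with UMIs of 2 or more neutrophil markers, whichever list led, which removed 369 naive cells (leaving 687) and 321 rejecting cells. The removed naive cells held 88.8% of the Il1b UMIs of the naive gate, 98.1% of those of Inhba, 84.2% of those of Vegfa, and 100% of those of Acod1. Without them, the pooled rejecting-to-naive ratio of Il1b was 4.98, that of Inhba 58.4 (counting interval 16.1 to 483, with 2 naive UMIs), and that of Vegfa 61.4 (20.9 to 298, with 3 naive UMIs). Acod1, with 0 UMIs in the 687 naive cells left, was then at least 292-fold higher. Hmox1 (0.626) and Thbs1 (0.730) stayed below 1.

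Among monocyte-marker cells alone, 7 of the 9 members had both rejecting libraries above every naive library, with Hmox1 and Thbs1 overlapping, where 29.6% of the 7677 genes tested in these cells did so. In the rejecting graft Il1b measured 1062 and 443 CPM in these cells, and in naive spleen 84.8, 108, 57.0, 74.1, and 14.9 CPM, a pooled ratio of 7.81. Acod1 measured 191 and 362 CPM and was at 0 in all 5 naive libraries. Inhba measured 45.4 and 42.8 CPM against a highest naive value of 2.97 CPM.

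The comparison of Hmox1 depended on the class of naive cells it was set against. Red pulp macrophages, which recycle heme from aged red cells, held 1485 CPM of Hmox1 over 67 naive cells and 31.0% of the naive Hmox1 UMIs. In macrophage-marker cells Hmox1 measured 192 and 159 CPM in rejecting kidney, below all 5 naive libraries (282 to 639 CPM, over 78 cells in all). In monocyte-marker cells it measured 150 and 220 CPM, and the naive libraries ran from 39.7 to 153 CPM (median 72.9), a pooled ratio of 2.59.

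Within the rejecting graft, the libraries differed in cell makeup. Macrophage-marker cells were 1338 cells (46.8%) of library 2 and 628 cells (14.3%) of library 3, and monocyte-marker cells were 857 (30.0%) and 2892 (65.8%). Another 1331 cells (18.4%) had no leading list. The assignment to these classes was close for many cells, since 1116 (29.8%) of the monocyte-marker and 564 (28.7%) of the macrophage-marker cells led by a single marker gene. Whether the cells themselves form sharp types was not tested. Comparing the 2 classes inside each library, 5 members were higher in monocyte-marker cells in both libraries (Il1b, Thbs1, Inhba, Saa3, Acod1), Arg1 was lower in both, and Nos2, Hmox1, and Vegfa differed in direction between libraries. The shares of all genes with these directions were not computed, so nothing is read from the count of members.

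Thbs1 followed monocyte markers most closely. It measured 91.2 CPM in monocyte-marker and 11.1 CPM in macrophage-marker cells of library 2, and 24.8 and 0.492 CPM, the last from 1 UMI, in library 3. Monocyte-marker cells held 72.1% and 98.0% of the Thbs1 UMIs of the gate. At a depth of 1000 UMIs per cell, C1qa was detected in 8.97% and 1.79% of Thbs1-positive cells against 39.1% and 14.5% of Thbs1-negative cells in libraries 2 and 3. For Ly6c2 the shares were 44.9% and 80.4% with Thbs1 against 19.0% and 53.8% without it.

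Inhba was 2.28-fold and 10.9-fold higher in monocyte-marker than in macrophage-marker cells, and Il1b was 2.40-fold and 2.98-fold higher. Saa3 was 3.61-fold and 1.92-fold higher in monocyte-marker cells and Acod1 1.30-fold and 2.31-fold higher. Arg1 was lower in monocyte-marker cells, at 56.4 against 40.8 CPM in macrophage-marker and monocyte-marker cells of library 2 and 51.7 against 48.0 CPM in library 3. The ratio in library 3 was 0.929, close to 1. Few cells held many of the Arg1 UMIs, so this direction could turn on them. Vegfa differed less between the classes than between the libraries. It measured 97.1 and 96.3 CPM in macrophage-marker and monocyte-marker cells of library 2 and 25.6 and 29.7 CPM in those of library 3, so the gap between libraries within each class was close to that over all cells.

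**Figure D2:**
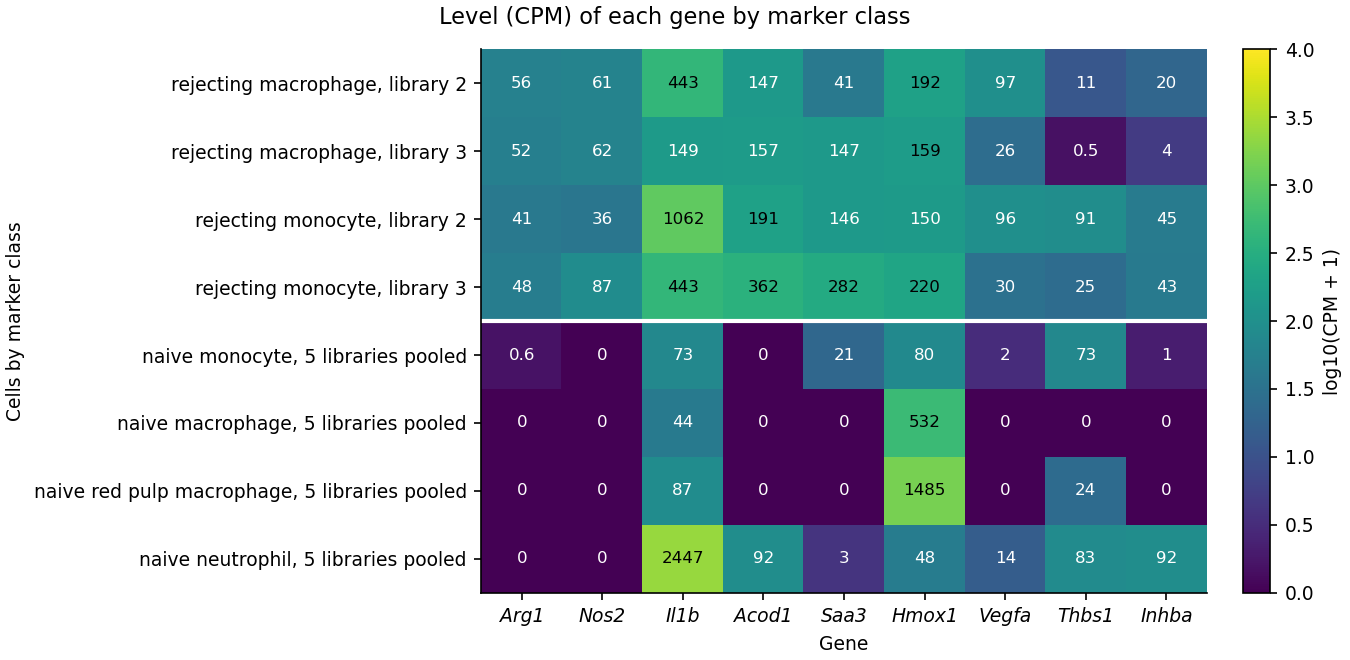
Level of each member in CPM (printed; colour gives log10 of CPM + 1) in macrophage-marker and monocyte-marker cells of each rejecting library and in 4 naive classes pooled over 5 libraries. Thbs1 differs most between the rejecting classes (91.2 against 11.1 CPM in library 2), Vegfa differs between libraries, and the highest naive values are Il1b in neutrophil-marker cells (2447 CPM) and Hmox1 in red pulp macrophage-marker cells (1485 CPM).

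Each member was detected in a minority of cells. To compare cells at equal depth, every cell was thinned to 1000 UMIs. Il1b was then found in 28.1% of gated cells in library 2 and 17.0% in library 3, 21.4% pooled (Clopper-Pearson 95% interval 20.4 to 22.3). Acod1 was found in 13.3% and 22.8%, and Hmox1 in 9.90% and 11.6%. Saa3 was found in 4.20% and 11.8%, Nos2 in 2.94% and 5.46%, and Vegfa in 7.17% and 2.53%. The rarest were Arg1 (1.68% and 2.25%, pooled 2.03%, interval 1.71 to 2.38), Inhba (2.38% and 1.91%), and Thbs1 (2.73% and 1.27%). Library 3 had the larger share for Arg1, Nos2, Hmox1, Saa3, and Acod1 and library 2 for the others. Without thinning, shares ran from 2.28% (Thbs1, library 3) to 39.3% (Acod1, library 3). Intervals cover counting error only.

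Droplets also capture free RNA, so the same shares were taken in 2151 rejecting barcodes with a CD3 UMI and no Lyz2, Csf1r, or Cd79a UMI (median 1945 UMIs, against 2321 in gated cells). They ran from 0.0465% for Thbs1 to 0.883% for Il1b, and reached 0.0930% for Arg1, 0.279% for Nos2, and 0.418% for Acod1, each below the share in gated cells. These barcodes lack myeloid UMIs by their definition, which could lower the shares. The gate also left out 1757 barcodes that held both a CD3 and a myeloid UMI and no Cd79a UMI (median 3123 UMIs). Arg1 measured 49.2 and 46.8 CPM in them, near its level in gated cells, while Il1b measured 352 and 133 CPM and Acod1 101 and 115 CPM, below theirs. Whether they are doublets, T cells with free myeloid RNA, or myeloid cells with free T cell RNA was not tested. In naive gated cells at this depth, Arg1 and Nos2 were each found in 0 of 984 cells. That count allows a share of cells with a UMI at this depth of up to 0.305%, for counting error only, and sets no limit on cells that express the genes. Il1b was found in 28.5% and Hmox1 in 14.7%.

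**Figure D3:**
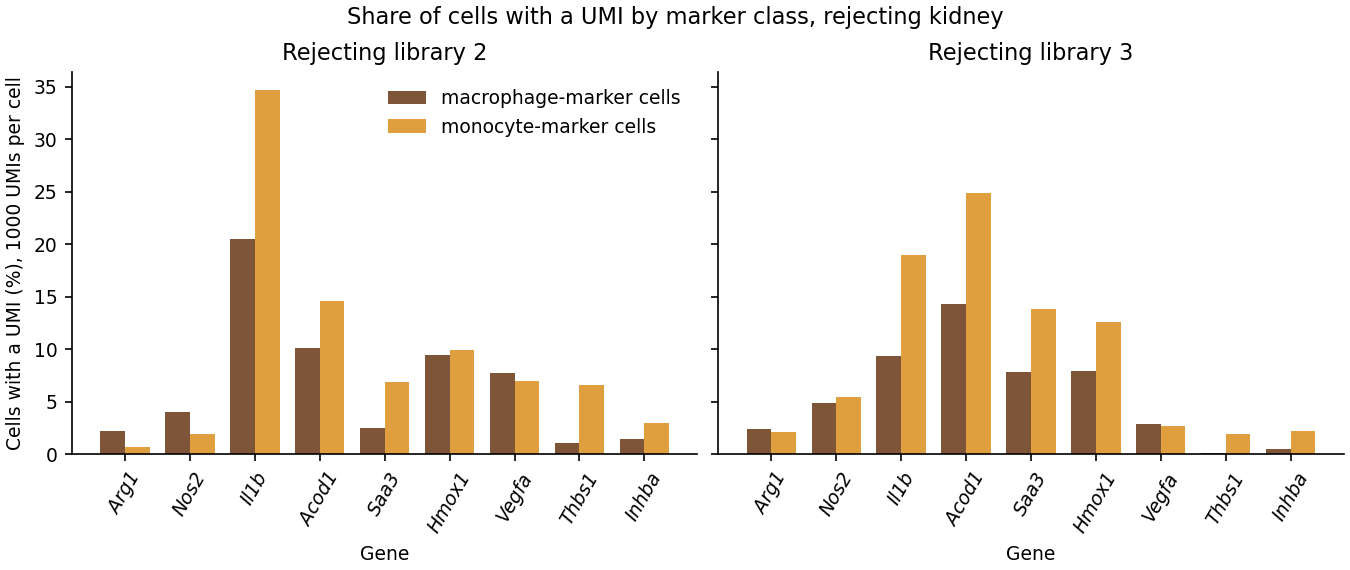
Percent of macrophage-marker and monocyte-marker cells with a UMI of each member after thinning to 1000 UMIs per cell, as bars in 1 panel per rejecting library. Il1b reaches 34.7% of monocyte-marker cells in library 2, and Acod1 24.9% in library 3.

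About equal shares of cells in the libraries, 50.4% and 50.7%, held none of the 9 members at 1000 UMIs. At least 2 members were found in 17.0% and 18.9% of cells, and the most in 1 cell was 5 in library 2 (3 cells) and 6 in library 3 (2 cells). For the 36 pairs, the odds ratio of finding both in a cell was above 1 in both libraries for 25 pairs, below 1 in both for 4, and split for 7. It was above 3 in both libraries for 6 pairs. The cells of a library share depth and free RNA, and cells are not replicates, so these ratios are descriptions. No doublet filter was applied, and whether barcodes that held both genes of a pair contained 2 cells was not tested. The members were proposed partly from their co-occurrence, and the shares over all pairs of genes were not computed. Nothing about the members is therefore read from the counts of pairs.

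At 1000 UMIs the highest odds ratio in each library was that of Il1b and Inhba. At 2000 UMIs, where shallower cells were left out, Thbs1 and Inhba were above them in library 2 (5.33 against 5.01). At 1000 UMIs, Il1b and Inhba had odds ratios of 6.03 and 11.1 in libraries 2 and 3, with 47 and 57 cells that held both. Of Inhba-positive cells, 69.1% and 67.9% held Il1b, against 27.1% and 16.0% of Inhba-negative cells. The odds ratio stayed high within classes, at 9.03 in monocyte-marker and 4.88 in macrophage-marker cells (Mantel-Haenszel over libraries, alternatives added after seeing the data). Il1b and Thbs1 had odds ratios of 4.07 and 9.94, with 47 and 37 cells, and 6.64 within monocyte-marker cells, but 0.618 within macrophage-marker cells, of which 15 held Thbs1. Il1b and Vegfa had odds ratios of 2.95 and 6.15, with 105 and 60 cells, and about 4 in each class (3.98 in monocyte-marker and 3.97 in macrophage-marker cells). Vegfa-positive cells held Il1b in 51.2% and 54.1%, against 26.3% and 16.1% of the others.

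Nos2, the nitric oxide synthase, occurred with Vegfa, Inhba, and Acod1. Nos2 and Vegfa had odds ratios of 3.22 and 5.50 (16 and 25 cells), Nos2 and Inhba 4.04 and 4.29 (7 and 16 cells), and Nos2 and Acod1 2.10 and 2.87 (20 and 106 cells). The value of Nos2 and Inhba in library 2 was 1.68 at 2000 UMIs (6 cells), and at 1000 UMIs no monocyte-marker or macrophage-marker cell of that library held both. Of Nos2-positive cells, 19.0% and 10.4% held Vegfa, against 6.81% and 2.07% of Nos2-negative cells. Nos2 and Thbs1 were below 1 in both libraries, at 0.422 and 0.312, with 1 cell each. That direction did not hold without thinning, where the ratio was 0.670 in library 2 (5 cells) and 1.56 in library 3 (14 cells).

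Arg1 had its highest odds ratios with Hmox1 at 1000 UMIs, an order that changed with depth. Arg1 and Hmox1 had odds ratios of 2.77 and 2.36 (11 and 23 cells), and 22.9% and 23.2% of Arg1-positive cells held Hmox1 against 9.68% and 11.4% of the others. With Il1b the ratio was 0.671 and 0.667 (10 and 12 cells), with Acod1 0.588 and 0.505 (4 and 13 cells), and no cell of either library held Arg1 and Thbs1 at this depth, where independence would give 1.31 and 1.26 cells. Without thinning, 3 cells of library 2 and 0 of library 3 held both (3.97 and 3.64 under independence). Also without thinning, Arg1 had a higher odds ratio with Vegfa (3.07) than with Hmox1 (2.36) in library 2, and a higher one with Saa3 (2.36) than with Hmox1 (2.03) in library 3. The ratio of Arg1 and Acod1 was then 0.696 in library 2 and 1.06 in library 3.

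Arg1 and Nos2, often used as opposite markers of macrophage state, showed no stable exclusion within cell barcodes. Doublets were not removed, and whether barcodes with both genes held 2 cells was not tested. No cell of library 2 held both at 1000 UMIs, where 1.41 cells would hold both if the genes were placed independently, and 8 cells of library 3 did, where 5.41 would. The Mantel-Haenszel odds ratio was 1.19. Without thinning, 9 and 22 cells held both, against 4.93 and 15.3 under independence, with odds ratios of 1.98 and 1.54. Within classes the ratio was 2.17 in monocyte-marker cells and 0.494 in macrophage-marker cells. At 2000 UMIs, 5 and 12 cells held both, with odds ratios of 1.75 and 1.39. These counts are small and carry no test.

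**Figure D4:**
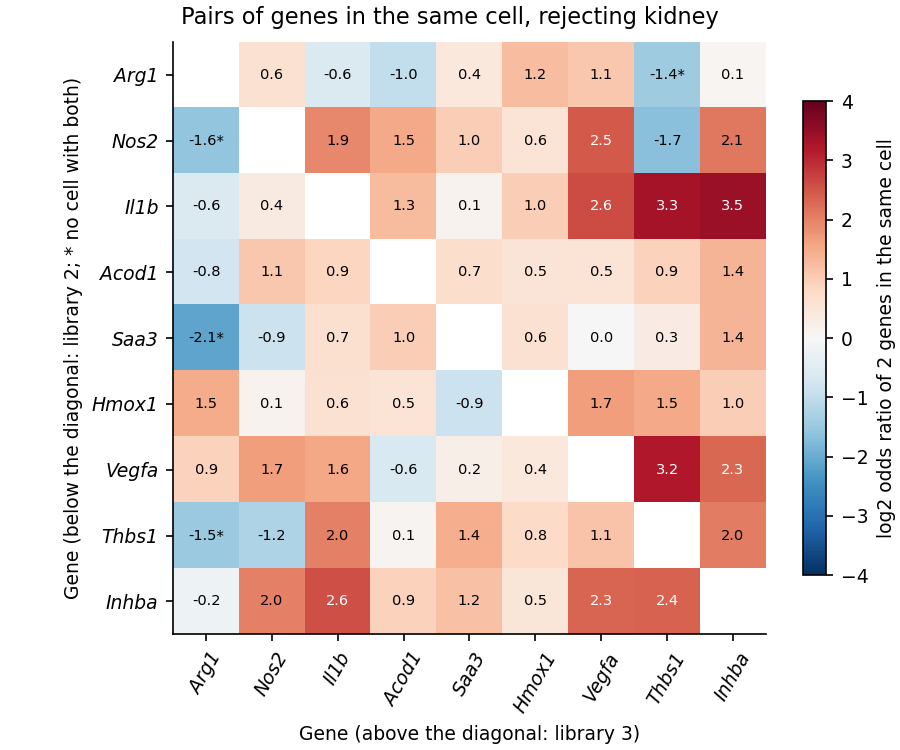
Log2 odds ratio (printed and as colour) of each pair of members in the same gated rejecting cell at 1000 UMIs, with library 2 below and library 3 above the diagonal, and an asterisk where no cell held both. All pairs among Il1b, Vegfa, Thbs1, and Inhba are above 0 in both libraries (odds ratios of 6.03 and 11.1 for Il1b and Inhba), and Arg1 is below 0 with Il1b and Acod1.

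For each member, the 3 genes with the most similar detection across cells were taken by the smaller of the phi coefficients of the 2 libraries, among the 3146 or 3147 other genes found in at least 5% of cells. Cxcl2, a chemokine for neutrophils, was among these 3 for 4 members, with 0.288 for Il1b, 0.145 for Inhba, 0.143 for Thbs1, and 0.104 for Hmox1. Cd14, the endotoxin coreceptor, was among them for Il1b (0.244), Thbs1 (0.148), and Inhba (0.134). Ifrd1 followed Il1b at 0.265, and Ier3 (0.146), Il1b (0.143), and Cd44 (0.129) followed Vegfa.

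The remaining members had other neighbors. Acod1 was nearest to Tnfaip2 (0.149), Cxcl10 (0.140), an interferon-induced chemokine, and Upp1 (0.136). Saa3 was nearest to Hp (0.106), which encodes haptoglobin, another acute phase protein, and to Wfdc17 (0.104) and Chil1 (0.0971). Hmox1 was near Prdx1 (0.0965) and Txnrd1 (0.0812), 2 genes of the antioxidant response. Nos2 (Gm15056 0.0869, Basp1 0.0835, Osbpl8 0.0828) and Arg1 (Cd36 0.0679, Tsc22d4 0.0590, Hmox1 0.0550) also had values below 0.1, and at this sparsity phi coefficients of this size, those of Prdx1, Txnrd1, and Chil1 included, are not findings.

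Genes of the pathways around the members were tested between rejecting kidney and naive spleen in 7 lists that hold no member. The lists were chosen with earlier results of these data known, and the contrast is the one used to choose the members. Their share of called genes is therefore a description and no independent evidence. UMIs were summed per library over gated cells and tested by edgeR with Benjamini-Hochberg adjustment over all 10019 genes, of which 27.6% were higher and 16.7% lower in rejecting kidney (44.4% called). With TMM factors 45.9% were called, 24.4% higher and 21.4% lower. Of the 104 listed genes, 88 were tested, 51 (58%) were higher, 7 (7.95%) lower, and 30 not called. The median log2 fold change of all genes was 0.13, and −0.01 with TMM factors. Neutrophil (5 of 5), erythroid (5 of 5), nonclassical monocyte (5 of 5), natural killer cell (5 of 5), B cell (4 of 4 tested), red pulp macrophage (4 of 5), dendritic cell (3 of 5), platelet (2 of 3 tested), and monocyte (2 of 5) markers were lower in rejecting cells and 4 of 5 macrophage markers higher, and their part in the lists was not tested. Of the erythroid calls, those of Hba-a1, Hba-a2, and Hbb-bt were lost without either rejecting library (edgeR adjusted p from 0.0510 to 0.0834). Values for the named genes are edgeR log2 fold changes ± SE of rejecting over naive libraries, with adjusted p. The SE was worked back from the fold change and the test statistic, and it is not a spread of the libraries.

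In the arginine and nitric oxide list, 4 of 10 tested genes were higher and none lower (median log2 fold change 0.50), with 1 lower under TMM factors. Ass1, which regenerates arginine from citrulline, rose by 3.65 ± 0.23 (adjusted p = 6.92e-07; mean 253 against 20.6 CPM). Slc7a2, an arginine transporter, rose by 2.96 ± 0.36 (adjusted p = 7.02e-05), and Gch1, which starts synthesis of a nitric oxide synthase cofactor, by 1.47 ± 0.25 (adjusted p = 0.000673). In the itaconate and interferon-gamma list, 7 of 12 were higher and none lower (median 2.50). Its leading genes were the chemokines Cxcl10 (6.53 ± 0.37, adjusted p = 3.96e-07) and Cxcl9 (6.15 ± 0.57, adjusted p = 9.47e-06; 3549 against 53.5 CPM) and the guanylate-binding protein gene Gbp5 (5.13 ± 0.27, adjusted p = 2.61e-07).

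In the interleukin-1 and inflammasome list, 8 of 12 were higher and none lower (median 1.44). Il1rn, the natural antagonist of the interleukin-1 receptor, rose by 3.05 ± 0.32 (adjusted p = 2.54e-05; 198 against 21.9 CPM), and Tnf by 2.73 ± 0.34 (adjusted p = 8.27e-05). Cxcl2 was called by edgeR (1.99 ± 0.59, adjusted p = 0.0163) and not by DESeq2 (adjusted p = 0.178) or without rejecting library 2 (edgeR adjusted p = 0.125). In monocyte-marker cells alone, a fit added after seeing the data, its log2 fold change was 5.29 (edgeR adjusted p = 5.93e-09). The acute phase list had 6 of 10 higher and 2 lower (median 1.01), with 4 higher under TMM factors. Tlr4, the endotoxin receptor, rose by 2.05 ± 0.22 (adjusted p = 2.90e-05). Cd14 (1.77 ± 0.51, edgeR adjusted p = 0.0139) and Clec4e (1.39 ± 0.52, adjusted p = 0.0470) were not called by DESeq2 (adjusted p = 0.0604 and 0.145). Without rejecting library 2, Cd14 had an edgeR adjusted p of 0.195, and Clec4e lost its call without any 1 of 5 libraries (both rejecting ones and naive libraries 2, 4, and 5), with adjusted p from 0.0613 to 0.158. In monocyte-marker cells alone both were called, with log2 fold changes of 1.85 for Cd14 (edgeR adjusted p = 0.000801) and 1.81 for Clec4e (adjusted p = 8.01e-05). Lcn2 fell by 7.66 on the log2 scale (SE 1.72, adjusted p = 0.00372) and Chil3 fell by 4.28 (SE 0.90, adjusted p = 0.00260). Lcn2, a neutrophil granule gene, ran from 53.1 to 3934 CPM in naive libraries, and without cells that held 2 or more neutrophil markers, a fit added after seeing the data, it fell by 2.08 (edgeR adjusted p = 0.0530). In monocyte-marker cells alone the log2 fold change of Lcn2 was −2.98 (edgeR adjusted p = 0.00474).

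In the hypoxia and angiogenesis list, 12 of 15 were higher and none lower (median 1.43), or 11 with TMM factors. The glucose transporter Slc2a1 rose by 3.70 ± 0.32 (adjusted p = 5.49e-06; 121 against 7.58 CPM), hexokinase Hk2 by 2.67 ± 0.17 (adjusted p = 7.98e-07), and the VEGF coreceptor Nrp1 by 2.46 ± 0.23 (adjusted p = 8.41e-06). The heme, iron, and oxidative stress list moved both ways, with 6 of 14 higher and 2 lower (median 0.36). Nfe2l2, the master regulator of the antioxidant response, rose by 2.05 ± 0.16 (adjusted p = 2.89e-06), Txnrd1 by 1.68 ± 0.19 (adjusted p = 3.46e-05), and Blvrb by 1.30 ± 0.32 (adjusted p = 0.00682). Blvrb lost its call without cells that held 2 or more neutrophil markers (0.96, edgeR adjusted p = 0.0514). It also lost its call without rejecting library 3, with a log2 fold change of 0.96. In monocyte-marker cells alone Blvrb was called (1.69, edgeR adjusted p = 0.000169). The 2 that fell, the iron exporter Slc40a1 (fell by 4.80, SE 0.78, adjusted p = 0.000470) and Spic (fell by 2.44, SE 0.79, adjusted p = 0.0261), are also markers of red pulp macrophages. Their rejecting libraries 2 and 3 lay far apart, at 24.9 and 2.25 CPM for Slc40a1 and 37.4 and 2.17 CPM for Spic.

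In the matrix, TGF-beta, and activin list, 8 of 15 were higher and 3 lower (median 0.93). The membrane protease Mmp14 rose by 5.56 ± 0.47 (adjusted p = 4.46e-06; 185 against 5.08 CPM), the activin receptor Acvr2a by 3.61 ± 0.33 (adjusted p = 7.90e-06), and Tgfbr1 by 2.07 ± 0.20 (adjusted p = 1.10e-05). Fibronectin, Fn1, fell by 3.75 (SE 0.51, adjusted p = 0.000146; 35.6 against 476 CPM), Igf1 fell by 3.50 (SE 0.76, adjusted p = 0.00300), and Cd47, a receptor for thrombospondin, fell by 0.67 (SE 0.19, adjusted p = 0.0123). Igf1 differed between rejecting libraries 2 and 3, at 10.8 and 0.584 CPM. Cd47 lost its call without either rejecting library (edgeR adjusted p = 0.0858 without library 2 and 0.0729 without library 3).

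**Figure D5:**
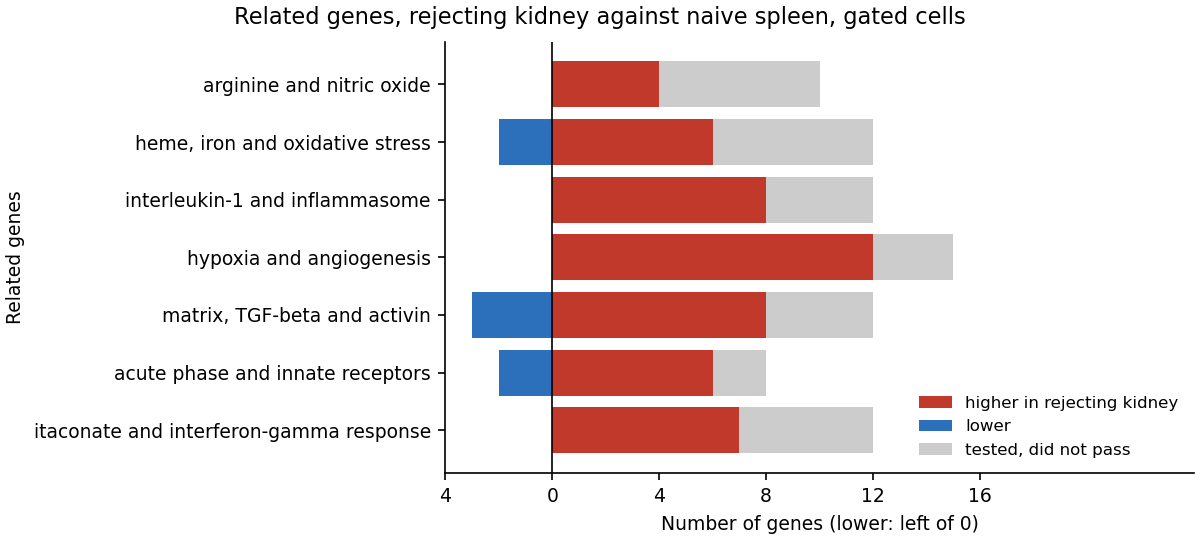
Number of genes in each of 7 lists around the members that were higher in rejecting kidney (right), lower (left of 0), or tested and not called (grey) by edgeR in gated cells. The hypoxia and angiogenesis list holds the most higher genes (12 of 15), and lower genes appear in 3 lists, with 7 in all.

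The CD8+ T cell matrices, which the choice of members did not use apart from 8 barcodes that also met the myeloid gate, gave the UMIs of the members in barcodes called CD8+ T cells, and how many of these come from free RNA was not tested. In the CD3 barcodes of the rejecting CD45+ matrix, Acod1 measured 5.85 and 4.14 CPM. Rejecting kidney (2 libraries, 2184 cells) was compared with accepted DBA/2J kidneys in B6 recipients at 1 week (3 libraries, 16467 cells). Donor and recipient strains are swapped between these groups along with the outcome, so strain and rejection cannot be told apart. No member was above 10 CPM in any of these libraries. Il1b measured 9.68 and 5.19 CPM in rejecting libraries and 7.62, 4.82, and 9.75 CPM in accepted ones, with no difference detected (log2 fold change −0.04 ± 0.40, edgeR adjusted p = 0.939). With TMM factors the log2 fold change of Il1b was −0.72 (edgeR adjusted p = 0.163), and with DESeq2 −0.71 (adjusted p = 0.234). Of 5 members that passed the filter on low counts, 1 was called, where 59.3% of 12533 genes were (48.8% higher, 10.5% lower). With TMM factors 53.2% were called (27.5% higher, 25.7% lower), and the share of calls that were higher moved from 82.3% to 51.7%. The called member was Acod1, with 2.10 and 3.24 CPM against 1.05, 0.425, and 0.732 CPM (1.88 ± 0.54, edgeR adjusted p = 0.0153), from 15 and 39 UMIs. The call was lost with TMM factors (1.20, adjusted p = 0.0756) and with DESeq2 (adjusted p = 0.217), and without rejecting library 3 (adjusted p = 0.146). The median log2 fold change of all genes was 0.70 with plain totals and 0.01 with TMM. With TMM factors the log2 fold change was 0.69 for Saa3, 0.26 for Hmox1, and −1.59 for Thbs1. With plain totals, Saa3 (1.38 ± 0.60, edgeR adjusted p = 0.0785) and Hmox1 (0.95 ± 0.38, adjusted p = 0.0569) missed the threshold, as did Thbs1 (−0.93 ± 1.03, adjusted p = 0.462). Saa3 passed it without accepted library 3 (edgeR adjusted p = 0.0173) and without the filter on low counts (adjusted p = 0.0426). Arg1, Nos2, Vegfa, and Inhba, with 6, 4, 4, and 2 UMIs in rejecting cells, did not pass edgeR's filter on low counts. DESeq2 gave Arg1, Nos2, and Vegfa adjusted p-values of 0.287, 0.339, and 0.781 and none for Inhba.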

How the data were processed

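CD45+ cells of rejecting kidney and naive spleen, and CD8+ T cells of rejecting and accepted kidney at 1 week, were used. The authors mapped reads with Cell Ranger (genome mm10 per the submitters' processing notes, version not given in the sources used here), filtered cells, and deposited raw UMI counts per gene and cell. Libraries were separated by the tag in each cell barcode, and other samples were not used here. Total UMIs of gated cells were 7382773 and 11982518 in rejecting libraries and 399768 to 1943462 in naive ones.

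CPM were computed from the UMIs of all gated cells of a library over their plain total. Shares and pairs used cells thinned to 1000 UMIs (72 naive cells were shallower and left out). Clopper-Pearson intervals came from scipy 1.17.1. Sums were tested with edgeR 4.0.16 in R 4.3.3 (filterByExpr, quasi-likelihood, Benjamini-Hochberg, adjusted p below 0.05), also tested on simulated data, and TMM factors and DESeq2 1.42.0 were alternatives. Doublets called by Scrublet (scanpy 1.11.5) were not used, since it marked 0 of the 11948 rejecting cells. A library in which Scrublet made no call was also recorded as 0. The 5% of cells with the most UMIs were left out as an alternative instead. Named genes were the members, up to 3 called genes with the largest and 3 with the smallest fold change per list at a mean of at least 20 CPM, and the 3 most-like genes per member. Members, lists, and rules were chosen with earlier results of these data known.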

Additional observations from a re-analysis of the deposited data

Results flagged for a closer look

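Arg1 was at 0.654 CPM in 1 naive spleen library and at 0 in the other 4, so that library stood apart from the rest by the gap criterion for 5 values (critical value 0.71). The value is 1 UMI in 279 gated cells. With 4 libraries at 0 any single UMI meets that criterion. It was met in 1 of 15 groups of 5 libraries examined.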

How the results depend on the processing

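The median over members of the CPM in rejecting cells was 66.4, and 77.6 to 80.9 when either rejecting library was left out. The median share of cells with a UMI was 4.85% at 1000 UMIs, 2.72% at 500, 9.12% at 2000, and 10.0% without thinning. The shift goes with the depth kept, and at 2000 UMIs also with the set of cells, since shallower cells were left out. The Mantel-Haenszel odds ratio of Arg1 and Nos2 was 1.19 and ran from 0 to 1.54 when 1 library was left out. Of the 10019 genes tested in gated cells 4447 were called, and 2843 to 4471 when 1 library was left out. Both low values (2859 without library 3 and 2843 without library 2) came from leaving out a rejecting library, which leaves 1 sample in that group, assumed to vary like the naive libraries. With TMM factors the share of calls higher in rejecting cells was 53.2%, against 62.3%. For the CD8+ T cell matrices the called genes ran from 6182 to 6969 in these repeats, against 7436. Of the list and marker genes, only the named ones were followed through the alternatives. These were called genes picked for large fold changes, so the other called genes of the lists are not covered. No called log2 fold change of these named genes in gated cells, or of a member in the CD8+ T cell matrices, changed sign under an alternative. The members' contrast in gated cells chose them and is given without a test. There the fitted log2 fold change of Hmox1 was −0.41, with −0.64 without cells that held 2 or more neutrophil markers and 1.21 in monocyte-marker cells. Some ratios given without a test also crossed 1. The pooled ratio of Il1b went from 0.829 to 4.98 without cells that held 2 or more neutrophil markers, and to 1.63 when a Csf1r UMI was required. It was 0.635 under a stricter gate, which asked for at least 2 markers of a longer myeloid list and no lymphoid marker (596 naive cells). The pooled ratio of Inhba went from 1.64 to 13.1 when a Csf1r UMI was required. That of Hmox1 went from 0.783 to 2.59 in monocyte-marker cells. The odds ratio of Arg1 and Acod1 in library 3 went from 0.505 to 1.06 without thinning. Of the marker genes, C1qa, C1qb, F13a1, and Plac8 lost their calls without rejecting library 2 (edgeR adjusted p = 0.0790, 0.0577, 0.145, and 0.0513), F13a1 also without library 3 (0.116), and Hba-a1, Hba-a2, and Hbb-bt without either (0.0510 to 0.0834). In monocyte-marker cells alone C1qa, C1qb, S100a9, and Vcam1 lost theirs (0.165, 0.156, 0.125, and 0.134). The log2 fold changes of these list and marker genes, and of members in the CD8+ T cell matrices, stayed on their side of the threshold in 807 comparisons with an alternative, lost a call in 36, and gained one in 2. The pair odds ratios, apart from that of Arg1 and Nos2, were less stable. On the log2 scale they moved by more than the SD between libraries in 92 comparisons and stayed within it in 258. Shares of rejecting cells with a UMI of a member moved by more than their SD in 17 comparisons and stayed within it in 64. Scrublet, planned as an alternative, marked no rejecting cell and was not run further. No paired analysis was possible because nothing in the labels ties a library tag of one group to one of the other. The depth limits statements on pairs with Arg1, which rest on 0 to 23 cells at 1000 UMIs.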
